A study of Saccharomyces cerevisiae with 2 samples.

Results

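The small ribosomal subunit protein mRNAs were taken as every protein-coding feature whose name is RPS followed by a digit and that had reads in either cross-linking and analysis of cDNA (CRAC) library. There were 56 such genes among 1927 protein-coding features and 3542 features of all kinds with sense reads. All 56 RPS genes of the R64 yeast annotation were found, and they form 24 paralog pairs, an A and a B copy each, and 8 single genes. In this method RNA is crosslinked by UV to proteins inside living cells, a tagged protein is recovered with its RNA, and cDNA made from the trimmed RNA is amplified and sequenced. The study compared Sni445-HTP, expressed from the chromosomal locus with a C-terminal His-TEV-protein A tag in the BY4741 background (MATa his3 leu2 met15 ura3, with SNI445-HTP::klURA3), with an untagged wild-type strain, labelled BY. Per the labels, both cultures were grown in YNB medium without tryptophan and with glucose to an OD of 0.6, irradiated for 100 seconds, taken through 2 immunopurifications and amplified with 16 PCR cycles. There was 1 library per strain and the number of clones was not given, so no difference between strains has a replicate check, and no test across samples was possible.

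The small subunit of the yeast ribosome is made of the 18S rRNA and of proteins encoded by the RPS genes and by ASC1. Most RPS genes were kept in duplicate after an ancient doubling of the yeast genome, and many carry an intron, which is rare among yeast genes. Their mRNAs are among the most abundant in growing cells.

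Mapped reads numbered 21867727 with Sni445-HTP and 12654405 in the control, which gave 26984818 and 22960662 sense counts. Reads lying on several annotated features counted once for each of them. The box C/D snoRNAs snR4 and snR45 took 79.5% of the sense counts of the tagged library and 1.42% of those of the control. The share left for any other RNA was therefore smaller with the tagged protein. Mapped reads were fewer than sense counts in both libraries, so over mapped reads both snoRNA shares would be larger. Over the 587 features with at least 10 reads in both libraries, the median ratio of shares between the libraries was 0.0208, a shift of -5.59 on the log2 scale. How much of this shift came from snR4 and snR45 was not tested. Levels of single genes are given as CPM, the sense counts of a gene scaled to a library of 1000000 sense counts, with all read lengths, unless another unit is named. Intervals are exact at 95% and cover counting error alone, with counts taken as independent. PCR copies of 1 molecule are not independent, so intervals on reads are too narrow for the number of molecules sampled. The files also give the number of distinct cDNAs per gene, which is not split by direction. No RPS gene had an antisense read in either library, so its reads and cDNAs refer to the same strand.

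In the Sni445-HTP library, 2 RPS genes stood far above the rest. RPS7B, which encodes a copy of Rps7 (eS7), had 6446 reads, and RPS22B, which encodes a copy of Rps22 (uS8) and carries a snoRNA in its intron, had 614. The other 54 genes had between 1 and 77 reads, with a median of 29. In the control, 25 genes had between 519 and 8474 reads, with a median of 3580, 7 genes had 54 reads or fewer, and 24 genes, RPS7B among them, had none. All 56 genes had reads with Sni445-HTP, which for the 24 without a control read follows from the choice of genes.

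**Figure D1:**
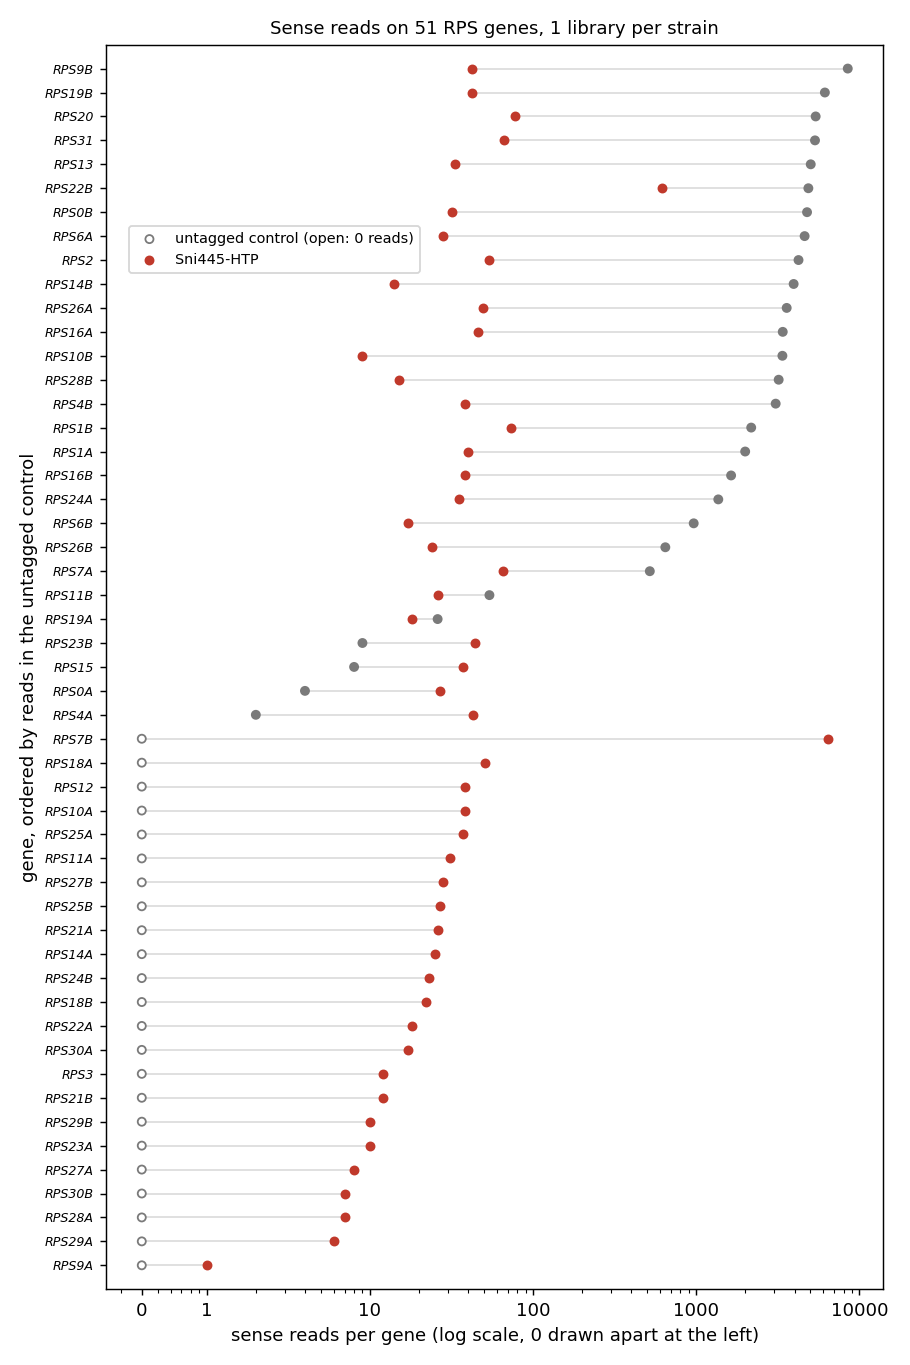
Sense reads on each of 51 RPS genes (log scale) in the Sni445-HTP library (red) and the untagged control (grey, open at 0 reads), with genes ordered by their control reads. The red points lie between 1 and 77 except for RPS22B at 614 and RPS7B at 6446, while the control points lie at 519 or above, at 54 or below, or at 0.

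Together the RPS genes had 8735 sense reads with Sni445-HTP, a share of 0.0324% (0.0317 to 0.0331), and 92157 in the control, a share of 0.401% (0.399 to 0.404). The ratio of the summed shares was 0.0806 (0.0789 to 0.0824), a lower share with Sni445-HTP, but the direction depended on the denominator and on RPS7B. Over protein-coding reads only, without the open reading frames that lie in the ribosomal DNA, the RPS genes took 25.3% of the tagged library and 5.70% of the control, a ratio of 4.43 (4.33 to 4.53). RPS7B alone was 18.6% of those protein-coding reads with Sni445-HTP. With RPS7B and RPS22B taken out of both the RPS genes and the protein-coding total, the other 54 genes took 6.09% of the tagged library and 5.42% of the control, a ratio of 1.12 (1.07 to 1.18). With these 2 genes kept in the total the ratio was 0.897, so the direction for the other RPS genes turned with the denominator. The protein-coding totals, with or without the 2 genes, kept YGL088W, with 347716 reads in the control and 1801 with Sni445-HTP. Without the 2 genes the totals were 1611376 and 27515. No ratio was computed without YGL088W, so the ratio of 1.12 sets no direction for the other RPS genes. In distinct cDNAs, the same 54 genes had 485 with Sni445-HTP and 1898 in the control, and a ratio of shares of all cDNAs of 0.637 (0.575 to 0.704). The cDNA totals, used for all cDNA ratios here, also hold cDNAs of features without sense reads. On this scale all features with sense reads had a ratio of 0.890, where in reads it is 1 by construction.

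A gene was called lower with at least 100 control reads and a share with Sni445-HTP at most 0.25 times that of the control, and higher where 100 or more reads with Sni445-HTP went with a ratio of shares of 4 or more. By this rule 25 of the 56 RPS genes were lower, against a background of 25.3% of all features and 21.5% of protein-coding features. All 25 RPS genes with at least 100 control reads were lower, where 98.2% of all features and 99.8% of protein-coding features with that many control reads were. This count is therefore close to what nearly every RNA of the control showed beside snR4 and snR45. In the higher direction 1 RPS gene was called, RPS7B, with a background of 1.07% of all features and 0.415% of protein-coding features. Over protein-coding reads, 6 RPS genes were lower and 2 higher, RPS7B and RPS22B, where 11.4% and 0.623% of protein-coding features were. The 24 RPS genes without a control read compare with 78.7% of the protein-coding features that had reads with Sni445-HTP, and 67% of all such features. Of the 76 genes of the large subunit proteins (RPL followed by a digit), 36 were lower, 4 were higher and 29 had no control read.

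The median ratio of shares over 55 RPS genes was 1.70, where the median over all features with a ratio was 1.13 and over protein-coding features 1.42. For 23 of the RPS genes a control of 0 reads was set to a floor of 3 reads, or 0.131 CPM. Their ratios are lower bounds against that floor only. The median gene was RPS29A, with 6 reads with Sni445-HTP and none in the control, so 1.70 is itself such a bound. Of the ratios over all features 1219 of 2538 were such bounds, and over protein-coding features 857 of 1363. These medians thus depend on the floor, and no difference is read from them. RPS9A, with 1 read with Sni445-HTP and none in the control, got no ratio. Over the 32 RPS genes with a read in both libraries the median was 0.0119.

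Among the genes highest in the control were RPS9B, with 8474 reads or 369 CPM (361 to 377), and RPS19B with 6136 reads. Rps9 (uS4) is among the first proteins to bind the 18S rRNA, and Rps19 (eS19) sits in the head of the subunit. With Sni445-HTP each of these genes had 42 reads, and their ratios of shares were 0.00422 (0.00304 to 0.00571) and 0.00582 (0.00419 to 0.00788). RPS20 encodes Rps20 (uS10), a protein of the head. Its control count was 5388 and its count with Sni445-HTP 77, a ratio of 0.0122 (0.00958 to 0.0152). RPS31, whose product is a fusion of ubiquitin and Rps31 (eS31), had 5338 and 66 reads, a ratio of 0.0105 (0.00812 to 0.0134). Also high in the control were RPS13 with 5026 reads, RPS22B with 4861, RPS0B with 4771, RPS6A with 4610 and RPS2 with 4230. Rps2 (uS5) lines the channel through which the mRNA enters. Apart from RPS22B, these genes had between 28 and 54 reads with Sni445-HTP.

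Among the lowest ratios were those of RPS10B, with 3370 control reads and 9 with Sni445-HTP (0.00227, 0.00104 to 0.00432), RPS14B with 3949 and 14 (0.00302, 0.00165 to 0.00507), and RPS28B with 3197 and 15 (0.00399, 0.00223 to 0.00659). Rps14 (uS11) binds on the platform of the subunit, near the decoding site. At the other end, below RPS7B, were RPS4A, with 43 reads in the tagged library and 2 in the control, and RPS18A, with 51 and none. The ratio was 18.3 for RPS4A (4.77 to 156) and at least 14.5 for RPS18A. These high ratios rest on 0 and 2 control reads and on counts with Sni445-HTP close to those of the other RPS genes.

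The 24 genes without a control read had between 1 and 70 reads with Sni445-HTP apart from RPS7B, with a median of 22.5 over all 24. The 25 genes with at least 100 control reads had between 3 and 77 apart from RPS22B, with a median of 38 over all 25. In the control there was no gene between 54 and 519 reads, and the same gap was there in cDNAs, with 24 to 165 for the 25 high genes and at most 4 for the others. Genes with and without an intron were alike in this respect, since 15 of the 36 genes with an intron between coding parts and 9 of the 20 without had no control read.

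Per kilobase of coding sequence, the highest genes in the Sni445-HTP library were RPS7B with 11249.6 reads, RPS20 with 210.4, RPS31 with 144 and RPS26A with 136. RPS22B was left out of this order, since its reads equalled those of the snoRNA in its intron. In distinct cDNAs per kilobase RPS7B had 27.9, RPS20 43.7, RPS31 45.8 and RPS26A 41.7, on 16, 16, 21 and 15 cDNAs, and these genes could not be ranked at these counts. RPS1B, RPS2, RPS7A and RPS18A were also among the genes with the most reads, with 73, 54, 65 and 51. In the control, genes with high values per kilobase were RPS28B with 15672 reads, RPS20 with 14721, RPS9B with 14412 and RPS19B with 14106.

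RPS7A and RPS7B encode Rps7 (eS7), a protein that joins the earliest precursors of the small subunit. RPS7A lies on chromosome XV from 505794 to 506767 on the plus strand and RPS7B on chromosome XIV from 443398 to 444315 on the minus strand (R64), each with an intron between its 2 coding parts. Both coding sequences are 573 nt long and differ at 85 positions, an identity of 85.2%, and 7.72% of the 30-base words of RPS7A occur in RPS7B. The aligner put reads that match more than 1 place at random, and reads under 30 nt can also match both copies in shorter shared runs, which were not counted. The longest run that both copies share is 53 nt, in the second coding part. It is shown in capitals with the 30 nt on each side, where the copies differ, from chrXV:506579-506691 (plus strand) for RPS7A and chrXIV:443474-443586 (minus strand) for RPS7B.
RPS7A: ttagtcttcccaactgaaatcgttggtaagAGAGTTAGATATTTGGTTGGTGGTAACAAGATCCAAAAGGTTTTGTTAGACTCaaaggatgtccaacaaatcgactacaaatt
RPS7B: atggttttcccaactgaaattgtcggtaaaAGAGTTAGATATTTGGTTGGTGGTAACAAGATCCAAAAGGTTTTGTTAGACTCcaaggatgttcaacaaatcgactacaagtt

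On RPS7A 65 reads were counted with Sni445-HTP and 519 in the control, and on RPS7B 6446 and 0. The share of RPS7B was 239 CPM with Sni445-HTP (233 to 245). Its 0 control reads were set to the floor of 3 reads, or 0.131 CPM, while their exact upper limit is 0.161 CPM. Against this floor the share of RPS7B was 1828-fold higher with Sni445-HTP, a value that depends on the floor. For RPS7A the ratio was 0.107 (0.0810 to 0.138). The copies thus differed in direction in shares of all reads, but over protein-coding reads the ratio of RPS7A was 5.85, also above 1. The 6446 reads on RPS7B came from 16 distinct cDNAs and the 65 reads on RPS7A from 11. In cDNAs the ratio was 13.3 for RPS7B against a floor of 3 cDNAs, and 0.857 for RPS7A (0.390 to 1.74). RPS7B had 403 reads per cDNA, where the median over 137 protein-coding genes with at least 10 cDNAs was 3.11 and the next highest, RPL2B, had 35.0. Among the RPS genes the next highest was RPS7A with 5.91. Of the reads on RPS7B, 6439 were within the 30 limit on read length, and so were 15 of its 16 cDNAs. The longest run that RPS7B, intron included, shared with snR4 or snR45 on the same strand was 9 nt. This was at the median of the 56 RPS genes, whose values ranged from 7 to 14 nt. With the reverse complement the longest run of RPS7B was 10 nt for snR4 and 11 nt for snR45. RPS7A also had 11 nt with the reverse complement of snR45, and RPS13 had 12 nt, the longest of the 56 genes. Whether such runs relate to the reads was not tested. How 16 cDNAs came to hold these reads was not tested. The call of RPS7B as higher rests on reads, since 16 cDNAs are below the minimum of 100 when cDNAs are counted.

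**Figure D2:**
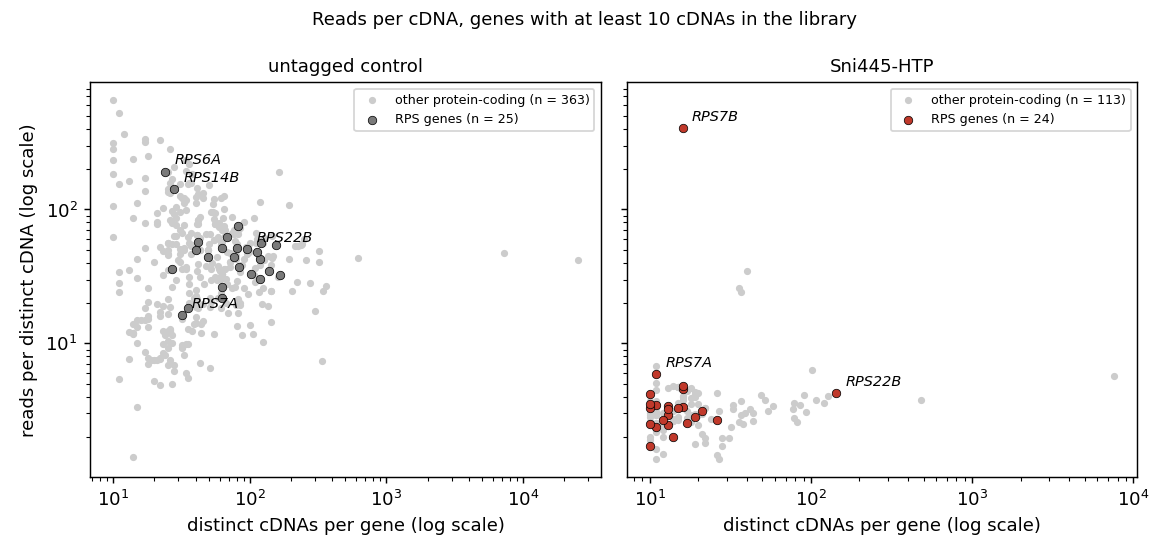
Reads per distinct cDNA against the number of distinct cDNAs (both log scale) for protein-coding genes with at least 10 cDNAs, in the untagged control (left, 25 RPS genes in dark grey) and with Sni445-HTP (right, 24 RPS genes in red), other genes in light grey. RPS7B stands alone at 403 reads per cDNA with Sni445-HTP, where RPS7A is at 5.91, and the control RPS genes lie between 16.2 for RPS7A and 192 for RPS6A.

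Across the 25 RPS genes with at least 10 control cDNAs, the median was 44.6 reads per cDNA, with RPS6A at 192 and RPS14B at 141. For the 24 such genes with Sni445-HTP it was 3.25. The control reads of an RPS gene thus stood for fewer cDNAs per read than those of the tagged library, as for protein-coding genes in general, whose medians were 43.0 and 3.11.

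RPS22B spans 856442 to 857317 of chromosome XII, plus strand. Its intron, from 856575 to 857057, holds the gene of snR44, a box H/ACA snoRNA that guides pseudouridylation of rRNA, from 856710 to 856920. The 211 nt of snR44 are shown in capitals within chrXII:856680-856950, since its counts equalled those of RPS22B, and the 30 nt of intron on each side are in lower case.
snR44: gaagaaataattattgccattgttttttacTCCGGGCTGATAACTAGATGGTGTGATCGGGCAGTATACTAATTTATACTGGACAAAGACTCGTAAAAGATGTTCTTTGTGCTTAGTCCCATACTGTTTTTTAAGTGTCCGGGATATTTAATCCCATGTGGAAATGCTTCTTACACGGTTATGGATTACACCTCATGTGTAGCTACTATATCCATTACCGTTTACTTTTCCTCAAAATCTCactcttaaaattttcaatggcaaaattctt

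RPS22B had 4861 reads and 96 cDNAs in the control and 614 reads and 144 cDNAs with Sni445-HTP, and snR44 had the same numbers. The counts were equal in both libraries, in reads and in cDNAs, and also within the 30 limit, where each had 5 control reads and 312 with Sni445-HTP. Since snR44 lies within RPS22B on the same strand, and reads were counted on every feature they overlap, these counts leave no read for the coding parts, and the values of RPS22B cannot be read as values of its mRNA. RPS22B was the only RPS gene that another annotated R64 gene overlaps. Its ratio of shares was 0.107 in reads (0.0987 to 0.117) and 3.74 in cDNAs (2.87 to 4.89), so that its direction depended on the unit, and over protein-coding reads it was 5.90. RPS22A, which has no intron between coding parts, had 18 reads on 6 cDNAs with Sni445-HTP and none in the control.

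Other genes that host a snoRNA in an intron divided their reads differently. ASC1, which encodes the remaining protein of the small subunit, had 15032 control reads, of which 31.3% were counted on snR24, and 377 reads with Sni445-HTP, of which 71.1% were. EFB1 had 76.4% of its 27024 control reads and 89.9% of its 296 reads with Sni445-HTP on snR18. IMD4 had none of its 7736 control reads on snR54, but all of its 86 reads with Sni445-HTP. TEF4 had none of its 312 control reads on snR38 and 75.9% of its 83 reads with Sni445-HTP. NOG2 resembled RPS22B, with all of its 3150 control reads and 430 of its 432 reads with Sni445-HTP on snR191. RPL7A and RPL7B had no control read, and with Sni445-HTP 81.4% of 177 and 75.5% of 49 reads on snR39 and snR59. In all 7 hosts of this list other than RPS22B, as in RPS22B, most reads of the tagged library lay on the snoRNA.

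RPS26B encodes a copy of Rps26 (eS26), which contacts the mRNA where it leaves the subunit. Its gene is at 423952 to 424311 of chromosome V, plus strand, and 386 nt separate it from the gene of snR4 downstream on the same strand, which begins at 424698. RPS26B had 24 reads on 7 cDNAs with Sni445-HTP and 646 reads on 35 cDNAs in the control, while snR4 had 12785901 and 239984 reads. The distant copy RPS26A, on chromosome VII, had 49 reads in the tagged library and 3580 in the control. RPS26B was thus not above its copy in the library where snR4 was most abundant. Its ratio of shares was above 1 only over protein-coding reads, 1.74, and under median-ratio scaling. Over all reads it was 0.0316 (0.0201 to 0.0475), against 0.0116 for RPS26A (0.00860 to 0.0154), which is a higher ratio by reads, but in cDNAs the intervals of 0.499 for RPS26B (0.187 to 1.14) and 0.317 for RPS26A (0.172 to 0.544) overlapped. Besides RPS22B and RPS26B, 4 RPS genes lie within 1000 nt of a snoRNA gene, among them RPS14A, RPS25B and RPS29A, which had 25, 27 and 6 reads with Sni445-HTP.

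The copies of a pair share much of their sequence. Of the 24 pairs, 23 share at least 1 word of 30 bases in their coding sequences, and the share of such words ranged from 0% for RPS27 to 80.2% for RPS6, with a median of 11.4%. Reads in shared words were placed at random, so the split between copies is uncertain, in particular for RPS4, RPS6 and RPS24, where 61.4%, 80.2% and 54.6% of the words of the A copy occur in the B copy. In 16 pairs both libraries had at least 20 reads. In the control, 1 copy held over 95% of the reads in 11 of these 16 pairs, and with Sni445-HTP in 3, RPS7, RPS9 and RPS22.

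The A copy of RPS4 had 2 of 3067 control reads, or 0.0652%, and 43 of 81 with Sni445-HTP, or 53.1% (41.7 to 64.3). This was so although the copies share a run of 158 nt. Likewise RPS0A had 4 control reads against 4771 on RPS0B, and 27 against 32 with Sni445-HTP, an A share of 45.8% (32.7 to 59.2). RPS10A, RPS11A and RPS14A had no control read, against 3370, 54 and 3949 on their B copies, and with Sni445-HTP they held 80.9% (66.7 to 90.9), 54.4% (40.7 to 67.6) and 64.1% (47.2 to 78.8). RPS24 was the opposite case, with 1364 control reads on RPS24A and none on RPS24B, and 35 and 23 with Sni445-HTP. RPS9 was uneven in both libraries, with 0 and 8474 control reads on A and B, and 1 and 42 with Sni445-HTP. For RPS1, RPS6, RPS16 and RPS26 both copies were well covered in the control, with A shares of 47.9%, 82.7%, 67.5% and 84.7%.

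In reads, the intervals of the A share did not overlap between the libraries in any of the 16 pairs. This rests on treating reads as independent. In distinct cDNAs only 6 pairs had at least 20 in both libraries, and the intervals were apart in 2 of them, RPS4, with 2 of 85 control cDNAs and 17 of 30 with Sni445-HTP on the A copy, and RPS7, with 32 of 32 and 11 of 27. In the other 4, RPS1, RPS6, RPS22 and RPS26, they overlapped, so that no difference was detectable at that depth. With Sni445-HTP the interval of the A share in cDNAs held 50% in 20 of the 24 pairs. In 6 pairs neither copy had a control read (RPS18, RPS21, RPS25, RPS27, RPS29 and RPS30). That both copies of each had reads with Sni445-HTP follows from listing only genes with reads in either library.

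**Figure D3:**
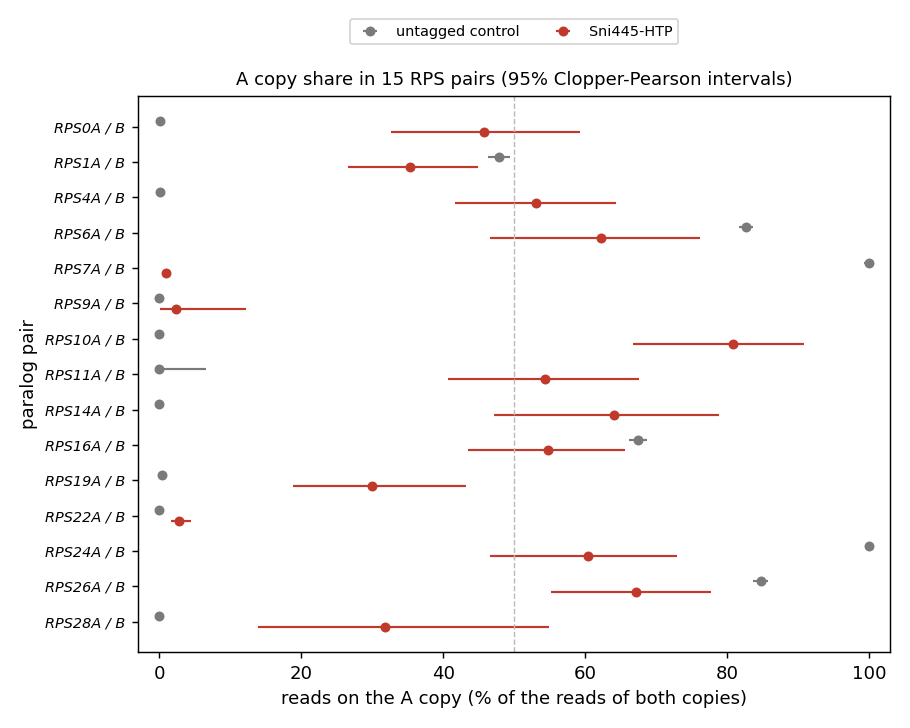
Share of a pair's reads on its A copy (%), with 95% Clopper-Pearson intervals, in the untagged control (grey) and with Sni445-HTP (red), for 15 pairs with at least 20 reads in both libraries, with a dashed line at 50%. The control points lie near 0% or 100% in 11 pairs, while with Sni445-HTP only RPS7, RPS9 and RPS22 lie that close to an end.

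The reads were also counted under a length limit of 30 bases. Of all RPS reads, 31.7% were within it in the control (31.4 to 32.0) and 89.1% with Sni445-HTP (88.4 to 89.7), but 58.6% with Sni445-HTP without RPS7B (56.5 to 60.6). In the control the single genes were at the extremes. Of the 27 RPS genes with at least 20 control reads, 13 had under 5% and 6 over 95% of their reads within the limit. RPS2, RPS6A, RPS6B, RPS11B and RPS14B had all of their reads within it, 4230 reads on 68 cDNAs for RPS2. RPS31, in contrast, had none of its 5338 reads on 165 cDNAs within it, and RPS4B, RPS19A and RPS24A had none either. With Sni445-HTP, 37 of the 39 RPS genes with at least 20 reads were between 5% and 95%, with a median of 57.1%, and the exceptions were RPS0A, with none of 27 reads, and RPS7B, with 99.9%.

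The same genes that were at an end in the control were between in the tagged library. RPS31 had 34 of its 66 reads within the limit with Sni445-HTP, or 51.5%, RPS2 had 75.9% (62.4 to 86.5), and RPS6A had 25.0%. RPS7A moved from 0.193% in the control to 81.5% with Sni445-HTP (70.0 to 90.1). RPS22B, which stands for snR44 here, moved from 0.103% to 50.8% (46.8 to 54.8). The pattern was not limited to the RPS genes. In the control, 70.4% of the RPS genes and 74.9% of the 418 other protein-coding genes with at least 20 reads were outside 5% to 95%, and with Sni445-HTP 5.13% and 7.98% of 188. With so uneven a split in the control, the ratio of a gene within the limit could differ from its overall ratio in either direction, as for RPS31, at least 7.06, and RPS2, 0.00604 (0.00433 to 0.00821).

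**Figure D4:**
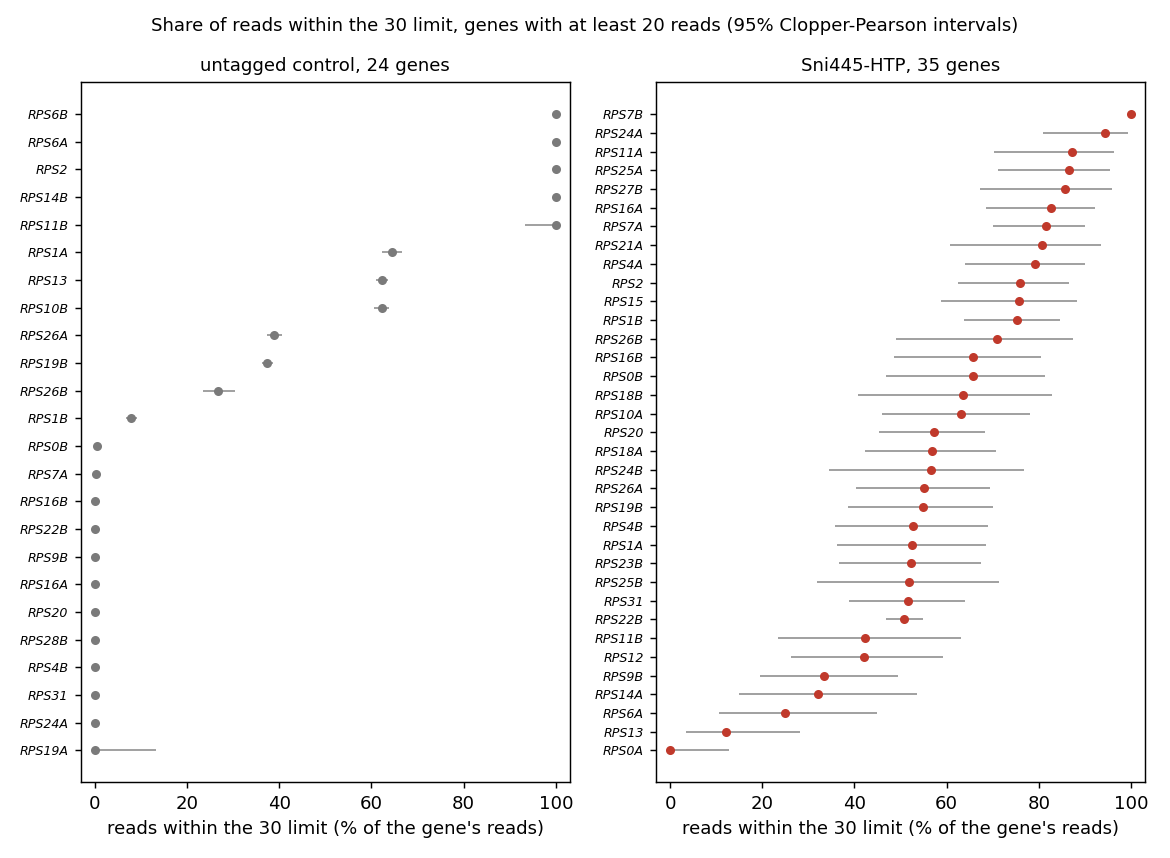
Share of each RPS gene's reads that were within the 30 limit on read length (%), with 95% Clopper-Pearson intervals, for 24 genes with at least 20 reads in the untagged control (left) and 35 with Sni445-HTP (right). Of the genes drawn, 12 lie under 5% and 5 over 95% in the control, while with Sni445-HTP all but RPS0A and RPS7B lie between.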

How the data were processed

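CRAC data were analysed from 1 library of the Sni445-HTP strain and 1 of the untagged control, assigned by the sample labels. The authors separated the libraries by index with 1 mismatch allowed, checked reads with FastQC 0.12.1, aligned them with Novoalign 3.09.00, which placed reads with several sites at random, and counted them on annotation EF2.59 (Counters 1.4.4 by the file header). The deposited values are raw counts per feature of sense reads, antisense reads and distinct cDNAs, with reads limited in length to 30 or to 1000. The rule by which cDNAs were told apart is not given in the sources used here. A gene that is not listed in a library was taken as 0, since feature sums equalled the header totals. Places and sequences are from RefSeq R64, matched by gene name for all 56 genes. EF2.59 is another build, so no coordinate of it was used.

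Shares, ratios and intervals were computed in Python 3.11.15 with numpy 2.4.6, pandas 2.3.3 and scipy 1.17.1, with plots in matplotlib 3.10.9. Shares have Clopper-Pearson intervals and ratios exact conditional binomial intervals at 95%. The floor for a 0 was 3 counts. Paralog pairs were compared with at least 20 reads in both libraries. The call rule and the intervals were tested on simulated counts drawn independently of each other, so that test does not cover PCR copies. Genes named are RPS7A, RPS7B, both copies of RPS22 and RPS26, the 10 with the most reads per library, the 5 highest and 5 lowest ratios among genes with at least 10 reads in both libraries together, the pairs compared, and hosts of intronic snoRNAs. Some RPS genes are counted in totals but are not reported here by name or drawn by name. Genes at 0% or 100% within the 30 limit, genes near snoRNAs and RPL2B were chosen after seeing their values. The members, lists and rules were chosen with earlier results of these data known. Alternatives were read length, cDNAs, denominators, direction, scaling, floor, minimums and left-out genes.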

Additional observations from a re-analysis of the deposited data

How the results depend on the processing

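Of 101 alternative values, 38 stayed within the counting interval of the value reported (for the median, that of the gene nearest to it, and for counts of genes, 1.5 times), 49 moved beyond it and 14 changed direction. Some of the 38 could not move, such as a floor of 1 for values without a 0 count. The same holds for antisense reads added to the share within the 30 limit, and for leaving RPS7B out of the genes called lower. The 38 are therefore not a measure of stability. The ratio of the summed shares, 0.0806, was 0.166 within the 30 limit, 0.0174 among longer reads, 0.806 in cDNAs, 0.0548 over mapped reads, 0.0698 with antisense reads, and above 1 over protein-coding reads, 4.43, and under median-ratio scaling, 3.88. It was 0.0211 without RPS7B and 0.0163 without RPS7B and RPS22B, 0.897 without both over protein-coding reads, 1.12 with both also out of that total, and 0.637 without both in cDNAs. The median ratio, 1.70, was 93.5 over protein-coding reads, 81.9 under median-ratio scaling and 3.94 with a floor of 1, but 0.410 over genes with at least 10 reads in both libraries together and 0.0119 over those with a read in both. The 25 genes called lower became 13 within the 30 limit, 5 in cDNAs, 6 over protein-coding reads and 7 under median-ratio scaling. The 1 gene called higher became 2 within the 30 limit, over protein-coding reads and under median-ratio scaling. That count became 0 in longer reads, in cDNAs and without RPS7B, and 19 with a minimum of 10 reads. Most of these 19 had no control read, so their ratios are bounds against the floor. Of the changed rules, only that over protein-coding reads has a background, 11.4% lower and 0.623% higher of protein-coding features. Nothing particular to RPS genes is read from the other counts.

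RPS22B, at 0.107, was at 38.9 within the 30 limit, 3.74 in cDNAs, 5.90 over protein-coding reads and 5.18 under median-ratio scaling, and at 0.0712 in longer reads, 0.0731 over mapped reads and 0.0931 with antisense reads. RPS26B, at 0.0316, was at 0.0612 within the limit, 0.0169 in longer reads, 0.499 in cDNAs, 1.74 over protein-coding reads and 1.52 under median-ratio scaling. RPS7A, at 0.107, was at 33.0 within the limit, 0.0265 in longer reads, 0.857 in cDNAs, 5.85 over protein-coding reads, 0.0725 over mapped reads and 5.13 under median-ratio scaling. RPS7B stayed above 1, at 1337 within the limit, 2.67 in longer reads, 13.3 in cDNAs, 100441 over protein-coding reads, 1243 over mapped reads, 1583 with antisense reads, 88032 under median-ratio scaling and 5485 with a floor of 1. Each of these is a bound against the floor used only. The share of RPS reads within the 30 limit with Sni445-HTP, 89.1%, was 52.6% in cDNAs, 92.0% without RPS22B, 58.6% without RPS7B and 61.4% without both, and in the control, 31.7%, it was 23.1% in cDNAs and 33.5% without RPS22B. Of the pairs, 2 of 6 had intervals apart in cDNAs, 5 of 6 within the 30 limit and 10 of 10 with at least 50 reads, against 16 of 16. Alternatives without RPS7B were chosen after seeing the data, and the causes of these changes were not tested. No paired analysis was possible because there was 1 library per strain.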
